A study of Mus musculus with 6 samples.

Results

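The T cell receptor of a CD8+ T cell signals through a small set of proteins at the membrane, and the RNA of 10 genes that encode them was examined here in T cells recovered from pancreatic tumours. The 10 genes were given as a list of names and matched by gene identifier, and they are 10 of the 55471 gene identifiers in the count tables. They encode the 3 CD3 chains (Cd3d, Cd3e, Cd3g), the zeta chain (Cd247), both chains of the CD8 coreceptor (Cd8a, Cd8b1), the kinases Lck and Zap70, and the adaptors Lat and Lcp2. Every gene was found in the tables and all 10 had enough counts to be tested.

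The cells were OT-I CD8+ T cells, whose receptor recognises an ovalbumin peptide. Donor cells came from OT-I:Rosa26-Cas9 mice on the C57BL/6J background, bred from Rag2/OT-I mice and Rosa26-Cas9 knock-in mice, so cells of both groups carried the Cas9 nuclease. After activation the cells received a lentiviral vector that encodes the surface marker CD90.1 and either a guide against Elovl1 (sgElovl1, n = 3 libraries) or a non-targeting guide (sgNT, n = 3 libraries). ELOVL1 is an enzyme that lengthens saturated very long-chain fatty acids. Recipients were 6 to 12 weeks old, carried KPC_OVA pancreatic tumours grown in the pancreas for 7 days before the transfer, and were all treated with anti-PD-1. CD90.1+ cells were sorted from the primary tumour 7 days after transfer. Replicates 1 and 2 of sgElovl1 were each pooled from 2 tumours, and the other 4 libraries came from 1 tumour each. The guide acts through cutting in a population of cells, so the sgElovl1 libraries could hold edited and unedited cells together. The activation before transfer, the anti-PD-1 and the tumour were common to both groups, and no library of untreated or naive cells was part of the comparison.

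The variable alpha and beta chains of the T cell receptor bind peptide on MHC molecules but have almost no cytoplasmic part. Signals are carried by the CD3 delta, epsilon and gamma chains and by the zeta homodimer, whose tails hold immunoreceptor tyrosine-based activation motifs (ITAMs), paired tyrosines that are phosphorylated by LCK. LCK is brought to the receptor by CD8, which binds MHC class I. ZAP70 docks on phosphorylated ITAMs and phosphorylates the membrane adaptor LAT and the cytosolic adaptor LCP2 (SLP-76), on which phospholipase C gamma and other effectors assemble.

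The ITAM-coding stretches are shown because they define what each chain adds to the complex. They were read from GENCODE M21 transcripts in the coding frame, 5′ to 3′, with the codons of both motif tyrosines in capitals.
Cd3d: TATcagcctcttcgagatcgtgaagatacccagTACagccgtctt
Cd3e: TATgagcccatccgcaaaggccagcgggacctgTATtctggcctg
Cd3g: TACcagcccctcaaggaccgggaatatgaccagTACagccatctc
Cd247, motif 1: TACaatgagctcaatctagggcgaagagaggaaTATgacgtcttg
Cd247, motif 2: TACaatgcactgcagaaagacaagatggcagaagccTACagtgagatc
Cd247, motif 3: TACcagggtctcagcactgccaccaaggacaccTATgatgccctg
Cd3d, Cd3e and Cd3g each encode 1 such motif, in chains of 173, 189 and 182 residues, and Cd247 encodes 3 in a chain of 164 residues. In Cd3e the tyrosines are residues 170 and 181. All but 1 of the stretches are 45 bases long, and motif 2 of Cd247 has 48 because 8 rather than 7 residues lie between its repeats. Every stretch crosses an exon boundary, with its bases on 2 exons.

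The genes lie in 2 clusters and at 5 further loci of GRCm38, the assembly also called mm10. Cd3g (chr9:44969572-44980431, minus strand) and Cd3d (chr9:44981786-44987339, plus strand) are neighbours whose starts are 1355 bases apart and which are read away from each other. Cd3e (chr9:44998740-45009627, minus strand) follows, and the cluster spans 40056 bases. Cd8b1 (chr6:71322788-71337494) and Cd8a (chr6:71373427-71379173) are both on the plus strand, with 35933 bases between them. Cd247 is at chr1:165788681-165877277, Zap70 at chr1:36761798-36782818, Lck at chr4:129548344-129573641, Lat at chr7:126363824-126369570 and Lcp2 at chr11:34046920-34092295.

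The 250 bases before the start of Cd3e, Cd247 and Cd8a are shown because these genes changed in level and have an entry among the RefSeq promoter sequences (GRCm38.p6). Capitals mark any match, on either strand, to 6 short motifs. RUNX factors were searched with the letters ACCACA and ETS factors with the letters AGGAAG. The E-box was searched as the word CAGGTG, and the motif of the GATA family as the word AGATAA. For TCF1 and its relative LEF1 the word was CTTTGA, and for the core promoter box it was TATAAA.
Cd3e (chr9:45009612-45009861, minus strand): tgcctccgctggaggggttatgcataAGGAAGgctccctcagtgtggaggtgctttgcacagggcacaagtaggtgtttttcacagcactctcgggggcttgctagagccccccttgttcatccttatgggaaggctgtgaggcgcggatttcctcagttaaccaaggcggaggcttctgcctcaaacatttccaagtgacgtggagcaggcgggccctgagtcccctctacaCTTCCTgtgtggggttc
Cd247 (chr1:165788431-165788680, plus strand): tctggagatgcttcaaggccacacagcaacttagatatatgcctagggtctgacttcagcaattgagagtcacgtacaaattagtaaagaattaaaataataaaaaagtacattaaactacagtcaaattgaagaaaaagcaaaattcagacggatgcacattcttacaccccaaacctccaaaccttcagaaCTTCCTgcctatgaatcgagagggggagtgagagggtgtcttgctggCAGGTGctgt
Cd8a (chr6:71373177-71373426, plus strand): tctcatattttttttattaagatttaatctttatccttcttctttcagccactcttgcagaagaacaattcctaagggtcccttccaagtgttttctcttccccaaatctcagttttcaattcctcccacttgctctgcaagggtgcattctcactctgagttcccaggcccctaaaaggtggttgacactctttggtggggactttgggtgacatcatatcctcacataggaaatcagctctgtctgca
The Cd3e window held AGGAAG at 2 places, 224 and 17 bases before the RefSeq start. That start lies inside the GENCODE span of Cd3e given above, so the nearer match overlaps the gene as annotated there. The Cd247 window held it 57 bases before the start, with CAGGTG at 10 bases. None of the 6 motifs was in the Cd8a window. Of the 12 windows listed for 9 of the genes (Zap70 has 3 and Lck has 2), 9 held AGGAAG, which 29.5% of all 32851 windows of this length hold. CAGGTG was in 6 of the 12 windows and in 17.2% of all, and CTTTGA in 3 and in 13.8% of all. ACCACA was in 2 and in 14% of all, AGATAA was in 2 and in 10% of all, and no window of these genes held TATAAA, which 12.4% of all hold. A match describes the letters of the window and is not a measured binding site.

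Total estimated counts were between 21980273 and 26165380 per library. The targeted gene separated the groups: Elovl1 was at 81.5, 76.6 and 95.4 normalised CPM (counts scaled to a common library size) in the sgElovl1 libraries and at 283, 280 and 255 in the sgNT libraries (log2 fold change -1.69 ± 0.12 SE, adjusted p = 8.71e-05). All 10 markers of CD8 T cells were detected, and the sum of their levels was lower in sgElovl1 (21300 to 26100 CPM) than in sgNT (26600 to 35300 CPM), without overlap. The largest parts of the sum were Nkg7 (means of 6390 CPM in sgElovl1 and 8560 CPM in sgNT) and Gzmb (5960 and 8740 CPM). Of the 10, only Trac reached an adjusted p under 0.05, and it fell. Estimates were above 0 for Ptprc and Cd28, whose groups did not overlap, and below 0 for the other 8. Cd4 averaged 0.238 and 0.431 CPM. The third library of each group held more RNA of tumour epithelium, with 314 and 979 CPM over 6 markers, led by Krt8, against 35.2 to 53.6 CPM in the other 4 libraries. Macrophage and neutrophil markers, apart from Ly6c2, which T cells also express, summed to 103, 149 and 324 CPM in sgElovl1 and 48.2 to 71.7 CPM in sgNT. All 13 of these were detected, and Adgre1 was at 0 in every sgNT library. Lyz2 was the highest of the 13 in sgElovl1 (53.7, 77.3 and 159 CPM, against 1.06, 8.62 and 14 CPM in sgNT), whereas Cd68 was the highest in sgNT (38.3, 46.1 and 36.7 CPM, against 27.5, 29.0 and 39.4 CPM in sgElovl1). The 7 dendritic cell markers summed to 113 to 194 CPM in sgElovl1 and 87.5 to 93.3 CPM in sgNT. H2-Ab1, an MHC class II gene, led the sum (means of 81.9 and 39.2 CPM) and did not reach an adjusted p under 0.05. Xcr1 went the other way (30.4 and 33.9 CPM). Of the 4 tested, 3 had estimates above 0 and 1 of these reached an adjusted p under 0.05. Platelet and mast cell markers (3.00 to 6.08 CPM against 0.234 to 0.828 CPM) and acinar cell markers (4.66 to 6.47 CPM against 3.06 to 4.37 CPM) were low and also did not overlap. Their leading genes were Cpa3 (means of 3.1 and 0.456 CPM) and Prss2 (2.83 and 2.46 CPM). Markers of NK cells (30.1 to 127 CPM, led by Fcer1g), B cells (6.01 to 9.07 CPM, led by Cd79b) and fibroblasts (at most 0.473 CPM, led by Col1a1) overlapped between the groups. Klra8, Mcpt4 and Pdgfra were at 0 in every library. Among the NK cell markers Klrb1c fell, from between 1.49 and 4.72 CPM to between 0.32 and 0.732 CPM (log2 fold change -2.37, adjusted p = 0.0151). The sum of the 5 CD4 and regulatory T cell markers was nearly all Ctla4 (means of 1310 and 1300 CPM) and overlapped, but 2 of the others moved in opposite directions. Foxp3, the lineage factor of regulatory T cells, fell from between 3.44 and 8.69 CPM to between 1.33 and 2.43 CPM (log2 fold change -1.67, adjusted p = 0.0201), and Ikzf2 (Helios) rose from between 12.1 and 26.0 CPM to between 46.4 and 57.2 CPM (log2 fold change 1.56, adjusted p = 0.02). The part of these cells in the differences below was not tested, and because the libraries are bulk RNA, fewer cells of a type and less RNA per cell cannot be told apart.

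Of the 10 genes, Cd3e rose and Cd247, Cd8a and Cd8b1 fell in sgElovl1 cells at an adjusted p under 0.05, by the quasi-likelihood test of edgeR over 12546 genes. The 1 rise stood beside 8.64% of all tested genes called higher and the 3 falls beside 5.13% called lower. The remaining 6 genes did not pass, and all had estimates below 0. The median log2 fold change of the 10 genes was -0.29 and that of all tested genes -0.004. The normalised CPM of the groups did not overlap for 5 of the 10, the 4 called genes and Lat, and 37.1% of all tested genes had groups without overlap.

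**Figure D1:**
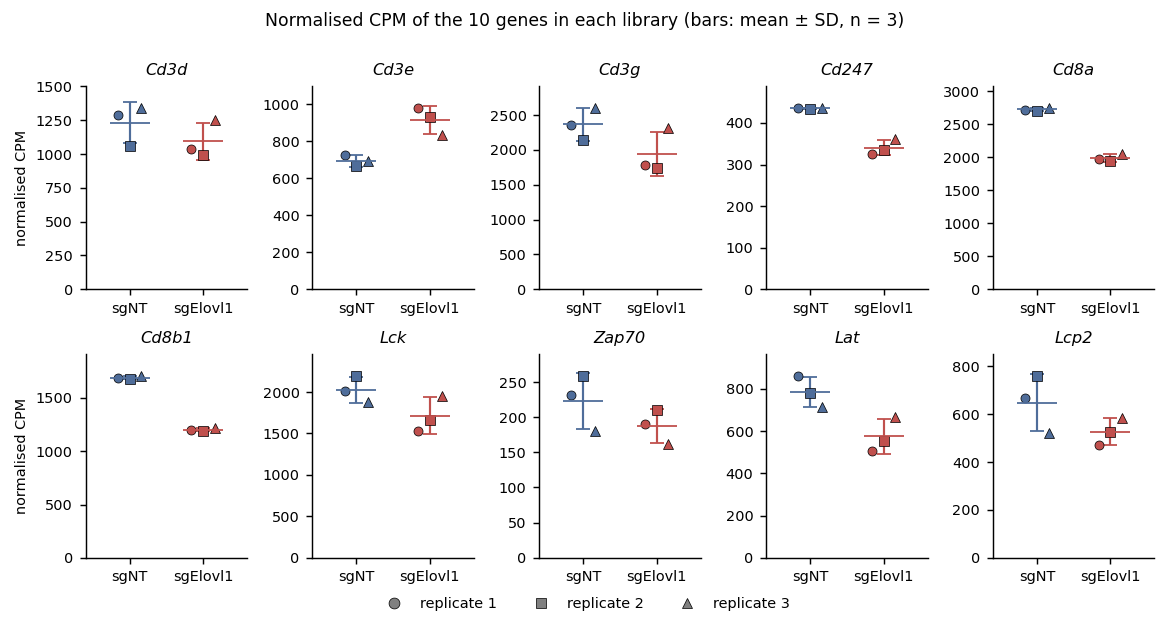
Normalised CPM of each gene (y axis, from 0, scales differ between panels) in the sgNT and sgElovl1 libraries; symbols are the 3 replicates, and bars show the mean and SD. The sgElovl1 libraries lie above all sgNT libraries for Cd3e and below them for Cd247, Cd8a, Cd8b1 and Lat, while the groups overlap for the other 5 genes.

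Cd3e encodes the epsilon chain, which pairs with both the delta and the gamma chain and so enters each receptor complex in 2 copies. Its level was 983, 929 and 831 CPM in sgElovl1 replicates 1 to 3 and 725, 665 and 691 CPM in the sgNT replicates. The lowest sgElovl1 library was thus above the highest sgNT library. On average the 3 sgElovl1 libraries reached 914 ± 76.7 CPM and the 3 sgNT libraries 694 ± 30.2 CPM (SD). The log2 fold change was 0.40 ± 0.12 (adjusted p = 0.0493), or 31.8% more. The call was narrow: with the replicate number as a block, which pairs same-numbered libraries, the adjusted p was 0.0614, and with relative log expression scaling it was 0.0506.

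Cd3d encodes the delta chain, one partner of epsilon. It stood at 1039, 989 and 1249 CPM in sgElovl1 and 1292, 1061 and 1344 CPM in sgNT. The ranges overlapped and the difference was within the spread of the libraries (log2 fold change -0.17 ± 0.14, adjusted p = 0.43). Cd3g encodes the gamma chain, the other partner. It stood at 1780, 1738 and 2308 CPM in sgElovl1 and 2353, 2138 and 2608 CPM in sgNT, where the third sgElovl1 library reached into the sgNT range (log2 fold change -0.29 ± 0.15, adjusted p = 0.218). For both genes the third library was the highest of its group. Although Cd3d and Cd3g are neighbours of Cd3e, neither had an estimate in the direction of Cd3e.

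Cd247 encodes zeta, which carries most of the ITAMs of the complex. It was at 326, 335 and 361 CPM in sgElovl1 and at 437, 434 and 436 CPM in sgNT. The sgNT libraries were nearly equal and lay above all sgElovl1 libraries. The log2 fold change was -0.36 ± 0.11 (adjusted p = 0.0495), so that the level fell by 21.8%. This call was also narrow, with an adjusted p of 0.0689 under the replicate block and 0.094 with no count filter. Pou2f1, a transcription factor gene on the opposite strand that overlaps Cd247, rose from between 5.62 and 6.62 CPM to between 11.0 and 14.9 CPM, which is small beside Cd247 (2.43% of its counts).

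Both CD8 chains fell. Cd8a, the alpha chain whose tail holds the LCK binding motif, was at 1977, 1943 and 2055 CPM in sgElovl1 and at 2719, 2699 and 2754 CPM in sgNT. Cd8b1, the beta chain of the heterodimer found on conventional CD8 T cells, was at 1201, 1186 and 1219 CPM in sgElovl1 and at 1691, 1676 and 1705 CPM in sgNT. In each group the 3 libraries were close together and the groups were far apart. The log2 fold changes were -0.45 ± 0.12 for Cd8a (adjusted p = 0.0346) and -0.49 ± 0.12 for Cd8b1 (adjusted p = 0.0212), so that the level of Cd8a fell by 26.9% and that of Cd8b1 fell by 28.9%. Both calls held under the replicate block. TPM is a level scaled to transcript length as well as to the library. Between the chains the log2 ratio of TPM of Cd8b1 over Cd8a was 0.14, 0.16 and 0.11 in sgElovl1 and 0.19, 0.20 and 0.20 in sgNT. The ratio differed by -0.06, without overlap (exact permutation test, two-sided, p = 0.1, the smallest that 3 against 3 libraries allow, and 0.3 after adjustment over 6 ratios). With CPM over a fixed length, which leaves out the isoform weighting of Cd8a, the difference was -0.04.

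Neither kinase passed the test. Lck, the Src-family kinase that phosphorylates ITAMs, was at 1527, 1667 and 1955 CPM in sgElovl1 and 2017, 2192 and 1878 CPM in sgNT. Replicate 3 of sgElovl1 was above replicate 3 of sgNT, while the others were lower than every sgNT library (log2 fold change -0.24 ± 0.14, adjusted p = 0.255). On TPM the direction turned, with a log2 difference of 0.03 (limma, adjusted p = 0.93). Zap70, the kinase that binds phosphorylated ITAMs, was at 190, 211 and 163 CPM in sgElovl1 and 232, 258 and 180 CPM in sgNT. The ranges overlapped (log2 fold change -0.25 ± 0.15, adjusted p = 0.27), and the third library was the lowest of both groups.

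Of the adaptors, Lat was close to the threshold and its groups did not overlap. It was at 505, 552 and 668 CPM in sgElovl1 and at 860, 780 and 715 CPM in sgNT (log2 fold change -0.45 ± 0.14, adjusted p = 0.052). The third libraries of the groups were nearest to each other. Lat passed in 6 of 14 alternatives, among them DESeq2 (adjusted p = 0.00678). Lcp2 was at 470, 527 and 582 CPM in sgElovl1 and 666, 759 and 520 CPM in sgNT. The third sgNT library lay within the sgElovl1 range (log2 fold change -0.30 ± 0.15, adjusted p = 0.197).

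The number of the 10 genes that passed depended on the libraries in the fit. When replicate 1 or replicate 2 of either group was removed, none passed in edgeR's test. In each of those 4 fits 5 of the 10 had an unadjusted p under 0.05, and they were Cd3e, Cd247, Cd8a, Cd8b1 and Lat. The share of all genes at that unadjusted threshold was not counted. The same 5 passed by DESeq2 on all 6 libraries, which called 10.4% of 22197 genes. That set includes genes of low count that the main fit left out, so this share is not comparable with those of edgeR. Without replicate 1 or 2 of either group the log2 fold changes were 0.34 to 0.45 for Cd3e, -0.34 to -0.33 for Cd247, -0.45 to -0.44 for Cd8a and -0.49 to -0.48 for Cd8b1, and these 4 fits called 2.47 to 7.41% of all genes. Without sgNT replicate 3 only Cd8b1 passed, in a fit that called 10.4% of all genes. Without sgElovl1 replicate 3, 7 passed, adding Cd3g, Lck and Lat, in a fit that called 21.1% of all genes. With the third library of both groups left out, Cd3d alone of the 10 did not pass, and of the 9 that did only Cd3e was higher. In that fit the log2 fold changes were 0.46 for Cd3e, -0.64 for Lat, -0.52 for Lcp2, -0.50 for Cd8b1, -0.47 for Cd8a, -0.40 for Cd247, -0.40 for Lck, -0.36 for Cd3g and -0.29 for Zap70. The number of all genes called moved likewise, from 1727 (13.8%) to 3986 (31.5%). No direction changed in any leave-one-out fit.

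**Figure D2:**
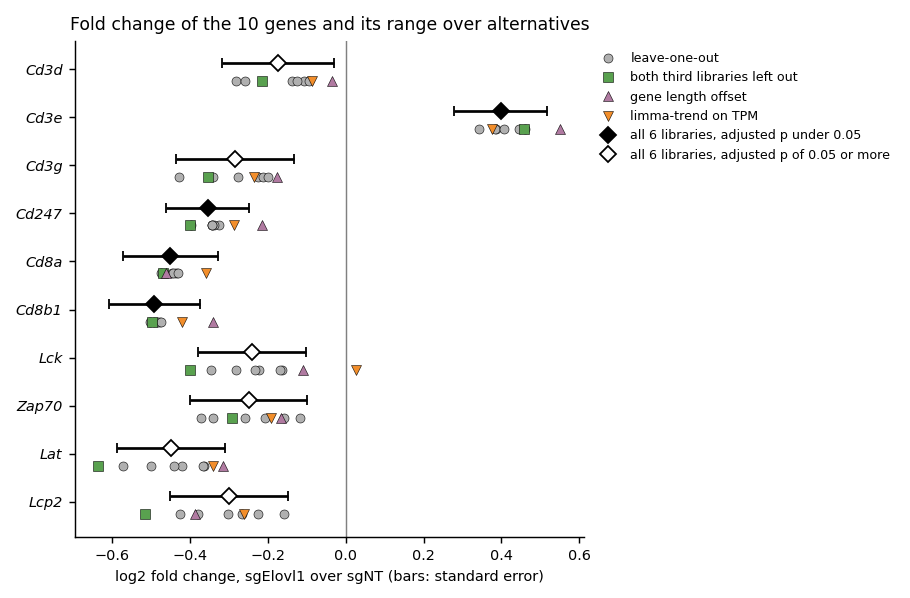
Log2 fold change of each gene, sgElovl1 over sgNT (x axis); diamonds with standard errors are the fit of all 6 libraries, filled where the adjusted p was under 0.05, and the smaller symbols below them are alternatives. Cd3e lies above 0 and 8 genes below 0 in every setting drawn, and Lck crosses 0 on TPM.

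Levels per length placed the chains in order. In the sgNT libraries Cd3g had the highest TPM (mean 3314), followed by Cd8b1 (1414), Lck (1357), Cd8a (1235), Cd3d (929), Lat (873), Cd3e (708), Cd247 (328), Lcp2 (258) and Zap70 (127). Among neighbours in this order, Cd8b1 and Lck, Lck and Cd8a, Cd3d and Lat, and Cd247 and Lcp2 had overlapping ranges. In sgElovl1 the mean TPM of Cd3e was 922, which put it between Cd8a (962) and Cd3d (875), with a range that overlapped both. All 10 were abundant, and the lowest of them, Zap70, was at percentile 88.7 of the 12546 tested genes by mean TPM. Among all 55471 identifiers Cd3g ranked 36, Cd3e ranked 186, Lcp2 ranked 754 and Zap70 ranked 1421.

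Within the CD3 and zeta group, the RNA shares shifted. Cd3e made up 21.1, 20.7 and 15.2% of the summed TPM of Cd3d, Cd3e, Cd3g and Cd247 in sgElovl1 and 13.7, 14 and 12.6% in sgNT. Cd3g made up 55.5, 56.1 and 61.4% against 61.8, 62.5 and 63.9%. Neither share overlapped between groups, and in both the third sgElovl1 library was nearest to sgNT (exact permutation test, two-sided, p = 0.1 for each, the smallest possible). The share of Cd3d was similar in all libraries (16.7 to 18.3%). Cd247 made up 5.52, 5.8 and 5.17% in sgElovl1 and 6.14, 6.82 and 5.71% in sgNT, ranges that overlapped (exact permutation p = 0.2). The summed TPM of the 4 genes was 4657, 4725 and 5305 in sgElovl1 and 5351, 5062 and 5425 in sgNT, ranges that overlapped (exact permutation p = 0.2). The summed TPM of the CD8 chains was 2009, 2054 and 1990 in sgElovl1 and 2653, 2767 and 2528 in sgNT, without overlap (exact permutation p = 0.1).

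**Figure D3:**
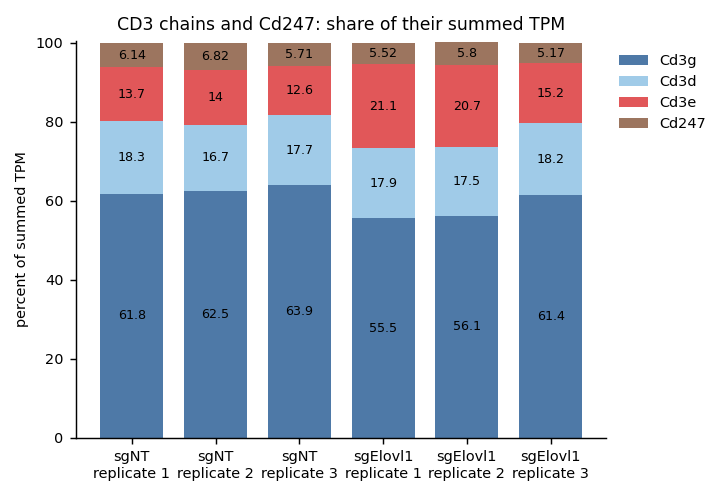
Share of the summed TPM of Cd3g, Cd3d, Cd3e and Cd247 (y axis, percent) in each library, with the value printed in each segment. The Cd3e segment is 15.2 to 21.1% in sgElovl1 and 12.6 to 14% in sgNT.

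The log2 TPM ratio of Cd247 over the mean of the 3 CD3 genes was -2.32, -2.23 and -2.31 in sgElovl1 and -2.02, -1.84 and -2.09 in sgNT, a difference of -0.31 without overlap (exact permutation test, two-sided, p = 0.1, 0.3 adjusted over the 6 ratios). Cd3e over Cd3d was 0.24, 0.24 and -0.26 in sgElovl1 and -0.42, -0.26 and -0.49 in sgNT. Here the third sgElovl1 library lay inside the sgNT range (difference 0.46, exact permutation p = 0.2). Cd3g over Cd3d, Zap70 over Lck and Lcp2 over Lat overlapped between the groups, with differences of -0.15, -0.22 and 0.08.

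The deposited tables also give a transcript length per gene that RSEM weights by the estimated share of each isoform, so it moves only when the estimated isoform makeup moves. It could vary for 9 genes, as Cd8b1 has 1 annotated isoform. For 6 of the 9 the groups did not overlap, compared with 20.6% of the 10311 tested genes whose length varied. Cd3e was at 1337, 1327 and 1331 bases in sgElovl1 and at 1277, 1279 and 1245 bases in sgNT, a rise of 64.5 bases. Its isoforms comprise a protein-coding transcript of 1462 bases and 3 retained-intron transcripts, of 2550, 517 and 394 bases. Lck was at 1620, 1607 and 1548 bases in sgElovl1 and at 1657, 1868 and 1846 bases in sgNT. Its mean length decreased by 198.7 bases, and TPM, on which Lck did not fall, divides the counts by this length. Cd8a was shorter by 36.7 bases and Cd3d by 14.6 bases, while Lcp2 was 73.5 and Cd3g 9.7 bases longer. Each of the 6 had an exact permutation p of 0.1, the smallest possible, and 0.15 after adjustment over the 9 genes. The lengths of Cd247, Zap70 and Lat overlapped between the groups.

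**Figure D4:**
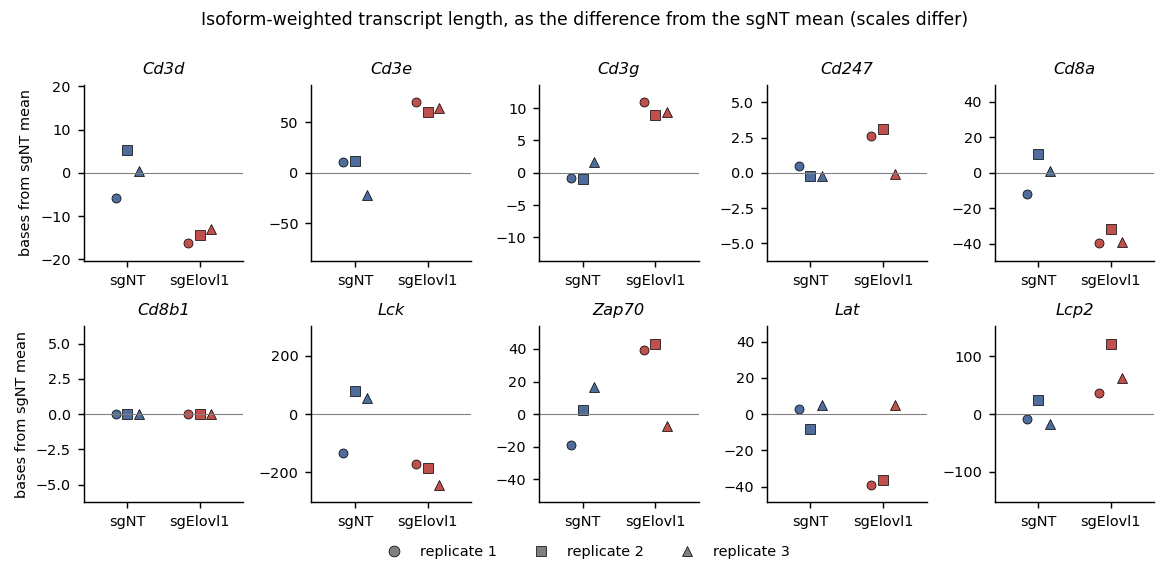
Isoform-weighted transcript length in each library, as the difference in bases from the sgNT mean (y axis, scales differ between panels), for sgNT and sgElovl1 libraries; symbols are replicates. Cd3e, Cd3g and Lcp2 are longer in all 3 sgElovl1 libraries than in any sgNT library, and Cd3d, Cd8a and Lck are shorter.

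An annotated transcript of unknown status inside Cd3e moved with it. Gm48720 (chr9:45008142-45009347, minus strand) lies on the strand of Cd3e in the intron between exon 2 and exon 3 and begins at the base next to exon 2. It was at 14.6, 15.1 and 15.9 CPM in sgElovl1 and 8.31, 2.11 and 3.02 CPM in sgNT, without overlap, but did not pass the test (log2 fold change 1.77, adjusted p = 0.0657). Reads of Gm48720 and of unspliced Cd3e RNA cannot be told apart here. Its counts were 1.22% of those of Cd3e.

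Fold changes depended on gene length across the whole experiment. The tested genes were divided by transcript length into 5 bins of equal size, and from the shortest bin to the longest the median log2 fold changes were -0.09, -0.18, -0.10, 0.08 and 0.32. Cd3g and Lat lay in bin 1, Cd3d, Cd3e, Cd247, Cd8b1 and Lck in bin 2, Cd8a and Zap70 in bin 3 and Lcp2 in bin 4. Within its bin, Cd3e was at percentile 86.9 of log2 fold change, Cd8a at 10.6, Cd8b1 at 11.0 and Cd247 at 24.6. With an offset for the length trend, Cd3e (log2 fold change 0.55, adjusted p = 0.0193) and Cd8a (-0.46, adjusted p = 0.0292) passed, and Cd8b1 (-0.34, adjusted p = 0.0643) and Cd247 (-0.21, adjusted p = 0.171) did not.

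The receptor chains that the CD3 proteins hold in the membrane were compared through their constant genes. Of the 6 genes listed, 4 were found by name and tested. Of these, 2 fell and none rose, beside 5.13% of all tested genes called lower and 8.64% called higher. Neither fall passed when replicate 1 or replicate 2 of either group was removed. Trac, the alpha constant gene, was at 2360, 2240 and 2650 CPM in sgElovl1 and 3640, 3550 and 3460 CPM in sgNT (log2 fold change -0.55, adjusted p = 0.0218). Trdc, the delta constant gene, fell by 0.41 on the log2 scale (adjusted p = 0.0362). The beta constant genes did not pass, with log2 fold changes of -0.13 for Trbc2 (adjusted p = 0.535) and 0.05 for Trbc1 (adjusted p = 0.832). Trbc1 and Trbc2 are near-identical in sequence, so their separate values are uncertain.

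Among 20 proximal partners, which bind or act beside the 10 proteins, 2 rose and 3 fell, with a median log2 fold change of -0.16. With the replicate block 4 passed, beside 13.4% of all genes. Tespa1, a linker required for signalling in thymocytes, rose from between 14.7 and 16.1 CPM to between 22.4 and 32.4 CPM (log2 fold change 0.87, adjusted p = 0.00654). Sh2d2a, the LCK-binding adaptor TSAd, fell from between 2800 and 3310 CPM to between 1790 and 2170 CPM (log2 fold change -0.62, adjusted p = 0.0171). Unc119, which binds LCK and aids its transport to the membrane, and Grb2, an adaptor that binds phosphorylated LAT, fell by 0.54 (adjusted p = 0.0213) and 0.57 (adjusted p = 0.0237) on the log2 scale.

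Of 20 attenuators, which dampen the same signal, 3 rose and 2 fell, and the median log2 fold change was -0.03. With the replicate block 6 passed, adding the kinase gene Csk, beside 13.4% of all genes. With the length offset 3 passed, beside 9.23% of all genes. The 3 that rose, Itch, Cblb and Cbl, encode ubiquitin ligases, and Rnf128, another ligase of the list, did not pass (log2 fold change -0.29, adjusted p = 0.599). Itch was at 58.4, 64.8 and 63.7 CPM in sgElovl1 and at 28.7, 30.9 and 32.2 CPM in sgNT (log2 fold change 1.02, adjusted p = 0.000785), and it passed in 14 of 14 alternatives. Cblb was at 193, 186 and 164 CPM against 123, 116 and 124 CPM (log2 fold change 0.58, adjusted p = 0.00819). Cbl was at 21.9, 18.4 and 14.2 CPM against 10.5, 10.9 and 11.2 CPM (log2 fold change 0.74, adjusted p = 0.0207). Cblb passed in 11 of 14 alternatives and Cbl in 8 of 14. The inhibitory adaptors Lax1 and Sla2 fell by 0.43 (adjusted p = 0.0234) and 0.54 (adjusted p = 0.0444) on the log2 scale.

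Of 12 transcription factors with known roles at the Cd8 and Cd3 genes, 11 had estimates above 0 but 1 passed, and the median log2 fold change was 0.29. This median was not adjusted for the length trend, in which the longest bin of all tested genes had a median of 0.32. With the length offset 1 of the 12 passed, beside 9.23% of all genes. Satb1, a chromatin organiser, was at 178, 157 and 146 CPM in sgElovl1 and at 104, 91.8 and 110 CPM in sgNT (log2 fold change 0.65, adjusted p = 0.00778). Runx1 was at 18.4, 15.9 and 8.23 CPM against 8.99, 8.26 and 7.74 CPM (adjusted p = 0.0741), and Bcl11b was at 67.4, 61.4 and 30.0 CPM against 29.5, 28.2 and 27.5 CPM (adjusted p = 0.085). In both, the first and second sgElovl1 libraries were high and the third was near the sgNT values. With the replicate block 3 of the 12 passed (Satb1, Bcl11b at an adjusted p of 0.0392 and Tcf7, whose adjusted p was 0.429 without the block and 0.00667 with it), beside 13.4% of all genes. Without replicate 3 of sgElovl1, 6 of the 12 passed, beside 21.1% of all genes, and without replicate 2 of sgElovl1 or of sgNT the call of Satb1 was lost.

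Genes that do the same tasks in other cells gave no call in the main fit. Of 10 such counterparts, 5 had enough counts to be tested, and none passed in edgeR's test, with 0 at an unadjusted p under 0.05. DESeq2 also called 0, and the replicate block called Lat2 (adjusted p = 0.0354). With replicate 3 of both groups left out 1 of the list passed, beside 31.5% of all genes. Lat2 passed in 2 of 14 alternatives. Syk, the counterpart of Zap70 in B cells and myeloid cells, averaged 0.566 CPM in sgElovl1 and 0.138 CPM in sgNT, and Blnk, the counterpart of Lcp2, averaged 0.0926 and 0.262 CPM. Lat2, a relative of Lat, was at 150, 131 and 227 CPM against 237, 169 and 293 CPM (adjusted p = 0.273). Lyn was not called (adjusted p = 0.374), and neither was Tyrobp, an ITAM adaptor of NK and myeloid cells (4.93, 5.43 and 13.8 CPM against 3.49, 0.78 and 6.00 CPM, adjusted p = 0.366).

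**Figure D5:**
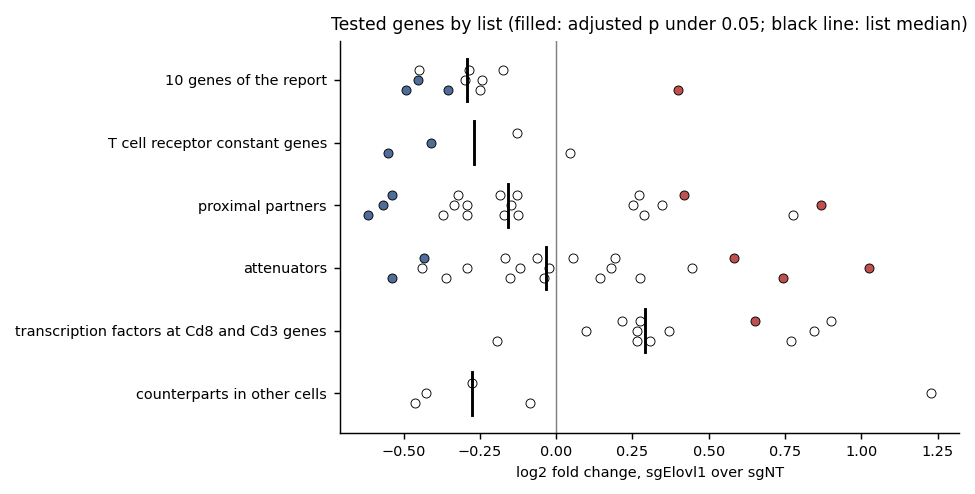
Log2 fold change, sgElovl1 over sgNT (x axis), of each tested gene in the 10 genes and 5 related lists (rows); filled points had an adjusted p under 0.05, red for higher and blue for lower, and black lines are medians. The medians run from -0.29 for the 10 genes to 0.29 for the transcription factors and were not adjusted for gene length.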

How the data were processed

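RNA of 6 libraries was extracted with TRIzol, pre-amplified (SMARTer) and sequenced as 150-bp read pairs. Per the submitters' processing notes, STAR 2.7.7a, RSEM 1.3.1 and DESeq2 1.36.0 were used with mm10. The annotation release and strand setting are not given in the sources used here. The deposited RSEM tables hold expected counts, which the authors did not scale between libraries and which were rounded for all count tests. They also hold TPM, scaled by the authors to transcript length and library, and isoform-weighted lengths in bases. Of the 55471 identifiers, 55144 matched a GENCODE M21 symbol.

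Groups came from the sample titles. edgeR 4.0.16 in R 4.3.3 was run with filterByExpr (minimum count 10), TMM, robust quasi-likelihood fits on the group, and two-sided tests with Benjamini-Hochberg adjustment over 12546 genes, with calls at an adjusted p under 0.05. Normalised CPM uses the TMM library sizes, and positive log2 fold changes mean a higher level in sgElovl1. Ratios, sums and lengths were tested by exact permutation (scipy 1.17.1). Cells of different mice were counted as replicates by the submitters, except the 2 pools, each counted as 1 sample. No libraries held identical values. Depth was similar in all libraries, and the biological coefficient of variation was 0.22.

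Same-numbered libraries deviated together from their group means (correlations of 0.212, 0.245 and 0.405 for numbers 1 to 3), and the numbers were taken to pair them. Unlike numbers also correlated above 0 for sgElovl1 replicate 1 with sgNT replicate 2 (0.169) and sgElovl1 replicate 2 with sgNT replicate 1 (0.107). Pairs of replicate 3 with replicate 1 or 2 were at -0.294 to -0.233. The correlations thus set replicate 3 apart but hardly separate numbers 1 and 2, so they do not establish the pairing. The titles give the numbers but no reason for the pairing. Alternatives were RLE scaling, no count filter, the replicate block, a length offset (lowess), each library left out, replicate 3 of both groups left out, DESeq2 1.42.0, limma-voom and limma-trend (limma 3.58.1) on log2(TPM + 1). The edgeR steps were tested on simulated data. The members and lists were chosen with earlier results of these data known. All 10 genes and Elovl1 are named, with the 3 genes of smallest p in each related list, every called gene where a list had 5 or fewer, and of marker lists the sum and the leading gene. One gene that the rule names is not reported here. Genes outside this rule (Gzmb, Ptprc, Cd28, Xcr1, Cd4, Adgre1, Klra8, Klrb1c, Foxp3, Ikzf2, Cd68, Mcpt4, Pdgfra, Rnf128, Csk, Tcf7, Syk, Blnk, Trbc1, Pou2f1 and Gm48720) were named after their values were seen.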

Additional observations from a re-analysis of the deposited data

How the results depend on the processing

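The targeted gene was called in 14 of 14 alternatives. Of the 10 genes, 4 passed with all libraries (beside 13.8% of all genes). RLE scaling also gave 4 (14.1%), with Lat in place of Cd3e. Leaving out the count filter gave 4 (8.72% of a wider set of 22312 genes), with Lat in place of Cd247. With the replicate block 2 passed (Cd8a and Cd8b1, beside 13.4% of all genes), with the length offset 2 (Cd3e and Cd8a, 9.23%) and on TPM 1 (Cd8b1, 8.65%). With replicate 3 of both groups left out 9 passed (31.5%), and with single libraries left out 0 to 7 (2.47 to 21.1%). Over all genes, 1727 were called, 321 to 2718 with single libraries left out, 3986 without replicate 3 of both groups and 1085 on TPM. The cause of these shifts was not tested. Removing a library also leaves 2 in its group. Under the replicate block the calls of Cd3e and Cd247 were lost, and no other call of the 10 genes changed. Of the 10 genes, the sign of the fold change turned for Lck on TPM (0.027). The difference between groups in the log2 ratio of Cd8b1 over Cd8a was -0.041 with CPM over a fixed length, against -0.061 on TPM. With effective length in place of length, the difference of Cd247 was -5.3 bases against 1.8. With single libraries left out, calls went from 5 to between 0 and 7 among the proximal partners, from 5 to between 1 and 7 among the attenuators and from 2 to between 0 and 2 among the constant genes. With 3 libraries per group, the exact tests could not go below 0.1.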
